A study of Aspergillus nidulans with 9 samples.

Results

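The genes described here are the upstream conidiation activators of *Aspergillus nidulans*, *fluG* (AN4819), *flbA* (AN5893), *flbB* (AN7542), *flbC* (AN2421), *flbD* (AN0279) and *flbE* (AN0721), together with the repressor *sfgA* (AN8129). They were chosen by locus as the known upstream regulators of asexual sporulation, which gives 7 of the 10988 rows in the count table. All 7 passed the filter on low counts, which kept 9481 rows. RNA was sequenced from vegetatively grown cells (Vege) of a Δ*veA* strain (Δ*veA*::*argB*), a Δ*laeA* strain (*methG1*; Δ*laeA*::*methG*; *veA*) and a wild-type (WT) strain, with 3 libraries per strain. All strains were grown in liquid 1% glucose minimal medium at 37 °C and 220 rpm in the dark for 24 h, and each genotype was represented by a single strain. The sources do not say if libraries of the same strain were grown as separate cultures, so the p values measure only the spread between these libraries, which may be technical.

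*A. nidulans* forms asexual spores (conidia) on conidiophores, and BrlA is the transcription factor that starts this program. FluG is needed for an extracellular signal that relieves repression by SfgA, after which the Flb proteins raise *brlA* expression. FlbA acts apart from them, as a regulator of G protein signaling that turns down the signal for vegetative growth. VeA and LaeA are partners in a nuclear complex that balances development and secondary metabolism. In submerged vegetative cultures such as these, conidiophores are normally not formed.

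The libraries held 13396869 to 35755046 reads counted on genes. The deleted genes were examined first. *laeA* (AN0807) had 4.96, 6.61 and 5.60 CPM (counts per 1e6 reads, after scaling by the TMM method) in Δ*laeA*, against 38.0, 35.2 and 34.2 CPM in WT. *veA* (AN1052) was at 815, 785 and 773 CPM in its own deletion strain, as labelled, against 116, 108 and 108 CPM in WT, which goes against the label. The counts are per annotated gene and do not show which part of it the reads cover, and the cause was not tested. The name Δ*veA* below therefore stands for the libraries labelled Δ*veA*, and each direction drawn from them rests on that label.

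In Δ*veA* Vege, *flbC* and *flbE* fell by about the threshold of 2-fold, *flbB* and *sfgA* fell less, *flbD* and *flbA* rose, and *fluG* did not pass the test. In Δ*laeA* Vege, *flbC* fell more than 3-fold and *flbD* rose more than 2-fold. *flbA*, *flbB* and *sfgA* fell by less than 2-fold in Δ*laeA*, and *fluG* and *flbE* did not pass the test. Genes were tested with edgeR's quasi-likelihood test, and p values were adjusted over all genes tested. A gene was called differentially expressed (DEG) if it changed more than 2-fold with an adjusted p below 0.05. Both comparisons used the same 3 WT libraries. Fold changes are given as the log2 of the mutant over WT with the standard error (SE).

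**Figure D1:**
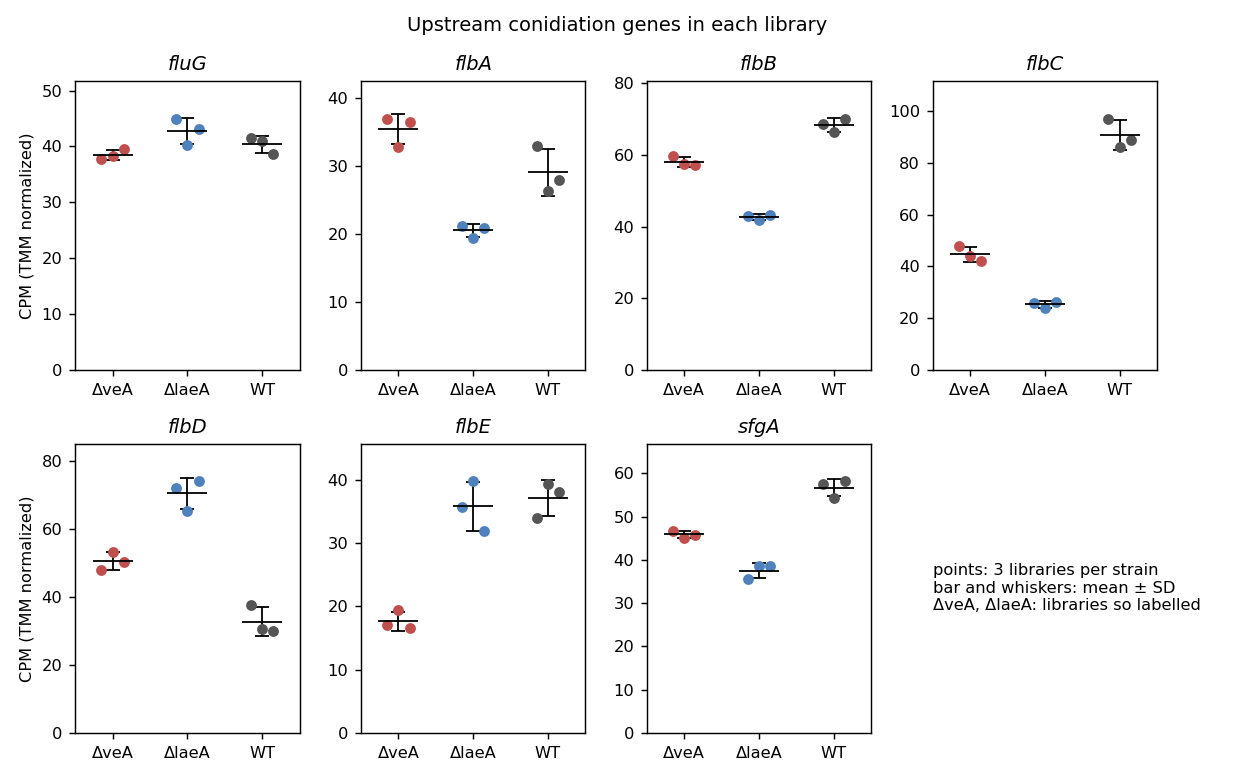
Expression of the 7 upstream genes in each library, in CPM after TMM scaling, with Δ*veA*, Δ*laeA* and WT from left to right. Points are libraries (n = 3 per strain), and the bar with whiskers is the mean ± SD. The *flbC* libraries of both mutants lie below those of WT, the *flbD* libraries of both lie above, and the *fluG* libraries of the 3 strains lie between 37.7 and 44.9 CPM.

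*fluG*, at the head of the pathway, encodes a protein related to glutamine synthetase that is needed for the sporulation signal. It had 37.7, 38.3 and 39.5 CPM in Δ*veA* and 44.9, 40.2 and 43.1 CPM in Δ*laeA*, against 41.5, 40.9 and 38.7 CPM in WT. The libraries of each mutant overlapped those of WT. The log2 fold change was −0.07 in Δ*veA* (SE 0.067, adjusted p = 0.343, edgeR), with a 95% interval of −0.20 to 0.07. In Δ*laeA* it was 0.08 (SE 0.067, adjusted p = 0.284, edgeR), with an interval of −0.06 to 0.22. Of all genes tested, 93.6% changed more than *fluG* in Δ*veA* and 89.9% in Δ*laeA*. When scaled by library totals alone, without TMM factors, *fluG* was lower in both mutants, at −0.33 in Δ*veA* (adjusted p = 3.84e-05, edgeR) and −0.24 in Δ*laeA* (adjusted p = 0.00164, edgeR).

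*sfgA* encodes the repressor, a zinc cluster transcription factor whose loss allows sporulation without FluG. It had 46.7, 45.1 and 45.8 CPM in Δ*veA* and 35.5, 38.5 and 38.5 CPM in Δ*laeA*, against 57.5, 54.3 and 58.1 CPM in WT. The strains did not overlap, with Δ*laeA* lowest and WT highest. *sfgA* fell by 0.30 on the log2 scale in Δ*veA* (SE 0.062, adjusted p = 6.02e-05, edgeR). It fell by 0.59 in Δ*laeA* (SE 0.064, adjusted p = 8.22e-10, edgeR). The repressor thus fell in both mutants, by less than 2-fold in each.

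*flbA* encodes the regulator of G protein signaling. It had 37.0, 32.9 and 36.6 CPM in Δ*veA* and 21.3, 19.5 and 21.0 CPM in Δ*laeA*, against 33.1, 26.4 and 27.9 CPM in WT. *flbA* was the only member whose means stood on opposite sides of WT in the mutants with both differences past the test. It rose by 0.30 in Δ*veA* (SE 0.081, adjusted p = 0.00117, edgeR), although Δ*veA* replicate 2 lay below WT replicate 1. With library totals alone this difference was 0.04 (adjusted p = 0.642, edgeR). In Δ*laeA* the gene fell by 0.49 (SE 0.087, adjusted p = 8.82e-06, edgeR), and no Δ*laeA* library overlapped WT.

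*flbB* and *flbE* encode a bZIP transcription factor and its partner at the hyphal tip. *flbB* had 59.7, 57.5 and 57.2 CPM in Δ*veA* and 43.1, 41.8 and 43.3 CPM in Δ*laeA*, against 68.7, 66.3 and 70.1 CPM in WT. Its libraries were ordered as those of *sfgA*, with WT highest, Δ*veA* between and Δ*laeA* lowest, and the strains did not overlap. *flbB* fell by 0.23 in Δ*veA* (SE 0.058, adjusted p = 0.000563, edgeR). It fell by 0.68 in Δ*laeA* (SE 0.060, adjusted p = 7.09e-12, edgeR), which became 1.00 and a DEG with library totals alone.

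*flbE* fell more than its partner in Δ*veA* and did not pass the test in Δ*laeA*. It had 17.1, 19.4 and 16.6 CPM in Δ*veA* and 35.8, 39.7 and 31.9 CPM in Δ*laeA*, against 34.0, 39.3 and 38.0 CPM in WT. All Δ*veA* libraries were below all others, and the Δ*laeA* libraries overlapped WT. *flbE* fell by 1.08 in Δ*veA* (SE 0.087, adjusted p = 3.71e-13, edgeR) and was a DEG. In Δ*laeA* the log2 fold change was −0.06 (SE 0.083, adjusted p = 0.532, edgeR), with a 95% interval of −0.23 to 0.11. Library totals alone gave −0.38 there (adjusted p = 8.57e-05, edgeR). The gene overlaps its neighbor AN0720 (*dph5*) in the reference annotation. The paper names no strand setting for the counting and states that programs ran with default settings unless it says otherwise. How reads in the overlap were counted was not examined, so they cannot be assigned with certainty. AN0720 rose by 0.48 in Δ*veA* (SE 0.071, adjusted p = 3.57e-07, edgeR), in the direction opposite to *flbE*.

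*flbD* encodes a Myb-type transcription factor that acts with FlbB on *brlA*. It had 48.0, 53.4 and 50.2 CPM in Δ*veA* and 72.2, 65.4 and 74.1 CPM in Δ*laeA*, against 37.8, 30.6 and 30.1 CPM in WT. The strains did not overlap, and the order was the reverse of that of *flbB*, with Δ*laeA* highest and WT lowest. *flbD* rose by 0.64 in Δ*veA* (SE 0.075, adjusted p = 3.44e-09, edgeR). It rose by 1.12 in Δ*laeA* (SE 0.075, adjusted p = 5.91e-15, edgeR), where it was the only one of the 7 to be a DEG that rose. With library totals alone this rise was 0.80, under 2-fold.

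*flbC* encodes a C2H2 zinc finger transcription factor that acts on *brlA* in parallel to FlbB and FlbD. It had 47.8, 44.1 and 42.1 CPM in Δ*veA* and 25.8, 23.9 and 26.4 CPM in Δ*laeA*, against 97.0, 86.0 and 89.0 CPM in WT. The strains did not overlap, and the lowest WT library was well above the highest Δ*veA* library. *flbC* fell by 1.01 in Δ*veA* (SE 0.065, adjusted p = 1.11e-15, edgeR), just past the threshold of 2-fold. Without WT replicate 1, Δ*veA* replicate 2 or Δ*veA* replicate 3 the fall came under 2-fold, with a range of −1.09 to −0.96 over all libraries left out in turn. It fell by 1.83 in Δ*laeA* (SE 0.070, adjusted p = 1.39e-21, edgeR), 3.57-fold lower than in WT. This was the largest of the 14 changes of these genes against WT, and 10.3% of all genes tested changed more in Δ*laeA*.

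The counts of calls among the 7 upstream genes were read against those over all genes. In Δ*veA*, 0 of 7 were DEGs that rose, against 13.6% of all genes tested, and 2 of 7 were DEGs that fell, against 19.9%. With no fold minimum, 2 rose and 4 fell in Δ*veA* at an adjusted p under 0.05, where 40.1% and 40.0% of all genes did. In Δ*laeA*, 1 was a DEG that rose, against 9.90% of all genes, and 1 was a DEG that fell, against 14.5%. With no fold minimum, 1 rose and 4 fell in Δ*laeA*, where 36.6% and 36.8% of all genes did. The median size of the log2 change over the 7 genes was 0.30 in Δ*veA* and 0.59 in Δ*laeA*, against 0.65 and 0.48 over all genes tested. The counts thus lay near those over all genes, and the median change was smaller than that of all genes in Δ*veA* and larger in Δ*laeA*. With 7 genes these are a description, and they were not tested as a set.

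**Figure D2:**
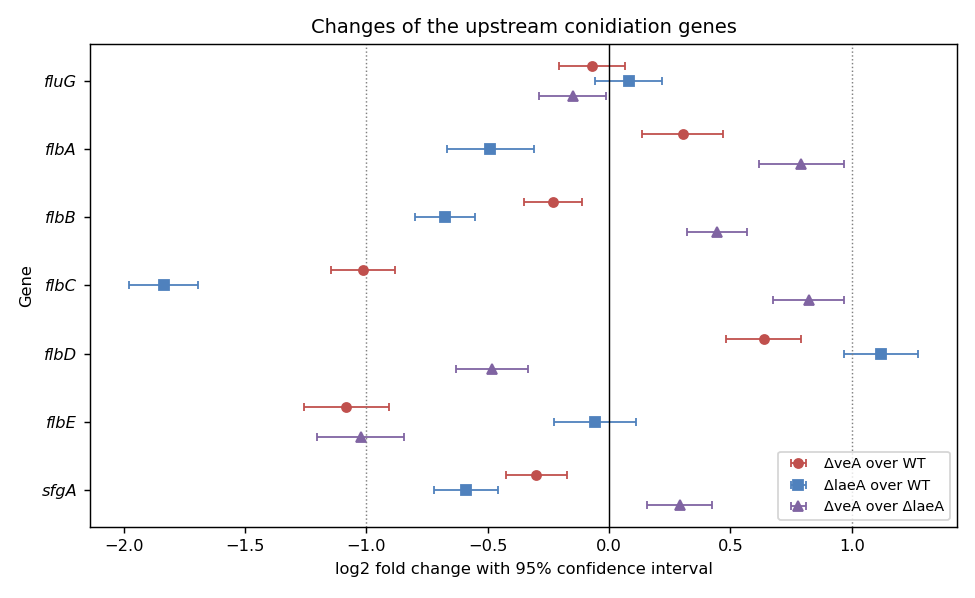
Log2 fold changes of the 7 upstream genes (horizontal axis) with 95% confidence intervals from edgeR, for Δ*veA* over WT, Δ*laeA* over WT and Δ*veA* over Δ*laeA* (n = 3 libraries per strain). Dotted lines mark 2-fold. *flbC* has the lowest value, −1.83 in Δ*laeA*, and *flbD* the highest, 1.12 in Δ*laeA*.

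The mutants were also compared with each other. In Δ*veA* relative to Δ*laeA*, *flbA*, *flbB*, *flbC* and *sfgA* were higher and *fluG*, *flbD* and *flbE* were lower, all at an adjusted p under 0.05 (edgeR). The largest difference was that of *flbE*, −1.02 on the log2 scale (SE 0.088, adjusted p = 4.78e-12, edgeR). It was the only DEG of the 7, and it came under 2-fold without Δ*veA* replicate 3 or Δ*laeA* replicate 2 and with library totals alone (−0.96). *flbC* differed by 0.82 (SE 0.072, adjusted p = 6.77e-12, edgeR) and *flbA* by 0.79 (SE 0.086, adjusted p = 9.35e-10, edgeR). *flbB* was higher by 0.45 and *sfgA* by 0.29, and *flbD* was lower by 0.48 (−0.48, SE 0.072, adjusted p = 5.3e-07, edgeR). For *fluG* the difference was −0.15 (SE 0.068, adjusted p = 0.049, edgeR), and the adjusted p lay between 0.0502 and 0.196 in the 7 of 9 fits with a library left out in which it lost the threshold. Among all genes, 6.74% were DEGs higher in Δ*veA* than in Δ*laeA* and 11.6% were DEGs lower. With no fold minimum, 36.5% were higher and 33.6% lower, against 4 and 3 of the 7 upstream genes.

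The choice of scaling moved every value against WT by a like amount. TMM factors in Δ*veA* ran from 0.948 to 0.961, and those in Δ*laeA* from 0.913 to 0.916, against 1.144 to 1.145 in WT. With library totals alone the median log2 fold change of all genes became −0.26 in Δ*veA* Vege and −0.33 in Δ*laeA*, and the share of DEGs that rose became 26% in Δ*veA* and 22.9% in Δ*laeA*, against 40.6% with TMM in each. The TMM values above are thus relative to a typical gene. Under library totals alone, *flbD* kept its rise in both mutants, and *flbB*, *flbC* and *sfgA* kept their fall in both.

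**Figure D3:**
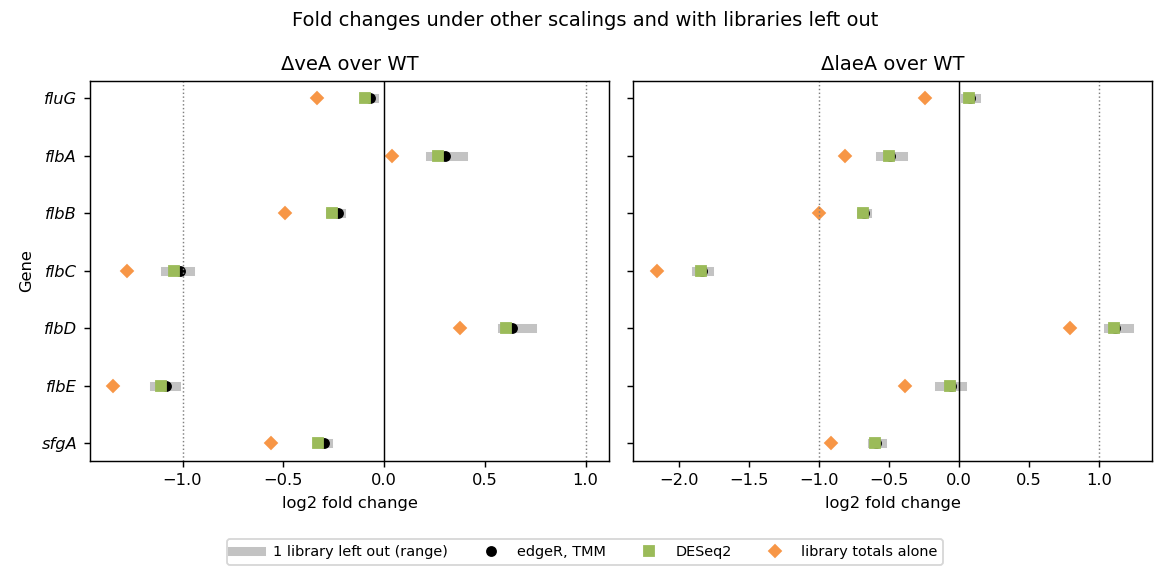
Log2 fold changes of the 7 upstream genes over WT (Δ*veA* left, Δ*laeA* right) with TMM and edgeR, with DESeq2 and with library totals alone. Gray bars span the values with each of the 9 libraries left out in turn, and dotted lines mark 2-fold. Library totals alone move every gene to the left, and *fluG* in Δ*laeA* is at −0.24 under them and at 0.08 with TMM.

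The 7 genes did not share a common profile. As a measure of likeness, the root mean square distance between log2 CPM profiles over the 9 libraries was taken, each profile centered on its own mean. Of the 21 pairs among the 7 genes, *flbB* and *sfgA* were closest, at 0.074 log2 units. Of 6633 other genes with a mean of at least 10 CPM, 15 lay nearer to *flbB* than *sfgA* did. *flbA* was next nearest to *flbB*, at 0.23. *flbC* and *flbD* were farthest apart, at 1.21, since the mutants were low for *flbC* and high for *flbD*.

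Among all genes with at least 10 CPM, those with the most similar profiles were AN4874 and AN4889 for *fluG*, AN4771 and AN1396 for *flbA*, AN1336 and AN2492 for *flbB*, and AN10806 and AN10545 for *sfgA*. For *flbC* they were AN3751 and AN4575, for *flbD* AN3357 and AN10295, and for *flbE* AN12290 and AN11854. The profile of *fluG* itself varied by only 0.078 (root mean square), against 0.75 for *flbC*. Its distances to AN4874 and AN4889 were 0.050 and 0.053, and neither gene passed the test against WT in either mutant. The 14 distances ranged from 0.037 (AN1336 to *flbB*) to 0.10 (AN11854 to *flbE*). The median distance to all genes was 0.33 to 0.85, and genes picked as the nearest lie below it by the way they were chosen. None of these genes has a symbol in the reference table. The same 14 genes were found with library totals alone. Scaling shifts all genes of a library nearly alike, so this was no separate check of the likeness.

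*brlA* (AN0973), the gene on which the upstream regulators act, fell in both mutants by far more than any of them. It had 1.38, 2.32 and 1.03 CPM in Δ*veA* and 1.05, 0.857 and 1.56 CPM in Δ*laeA*, against 18.5, 15.8 and 15.6 CPM in WT. It fell by 3.41 in Δ*veA* (SE 0.18, adjusted p = 1.21e-17, edgeR) and fell by 3.84 in Δ*laeA* (SE 0.20, adjusted p = 1.34e-17, edgeR). Between the mutants it differed by 0.43 (adjusted p = 0.177, edgeR). Of the 5 genes of the central pathway and its modifiers, 4 fell and 0 rose in Δ*veA*, and 3 fell and 1 rose in Δ*laeA*, with medians of −1.44 in Δ*veA* and −1.08 in Δ*laeA*, where the median over all genes tested was 0.0012 and −0.0041. Over all genes, 40.0% fell and 40.1% rose in Δ*veA*, and 36.8% fell and 36.6% rose in Δ*laeA*. *stuA* (AN5836), a modifier of conidiophore shape, fell by 1.44 in Δ*veA* and fell by 1.17 in Δ*laeA*. *abaA* (AN0422), the transcription factor after BrlA, had 1.11 CPM in Δ*veA* and 0.977 CPM in Δ*laeA*, against 2.11 CPM in WT, and fell by 0.90 in Δ*veA* and fell by 1.08 in Δ*laeA*. *wetA* (AN1937), which acts in conidium maturation, fell by 2.88 in Δ*veA*, while its change in Δ*laeA* was −0.13 (adjusted p = 0.532, edgeR). *medA* (AN6230), another modifier, was at −0.03 in Δ*veA* (adjusted p = 0.581, edgeR) and rose by 0.74 in Δ*laeA*. Under library totals alone, *wetA* in Δ*laeA* was at −0.45 (adjusted p = 0.0241, edgeR) and *medA* in Δ*veA* at −0.29 (adjusted p = 1.01e-05, edgeR).

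**Figure D4:**
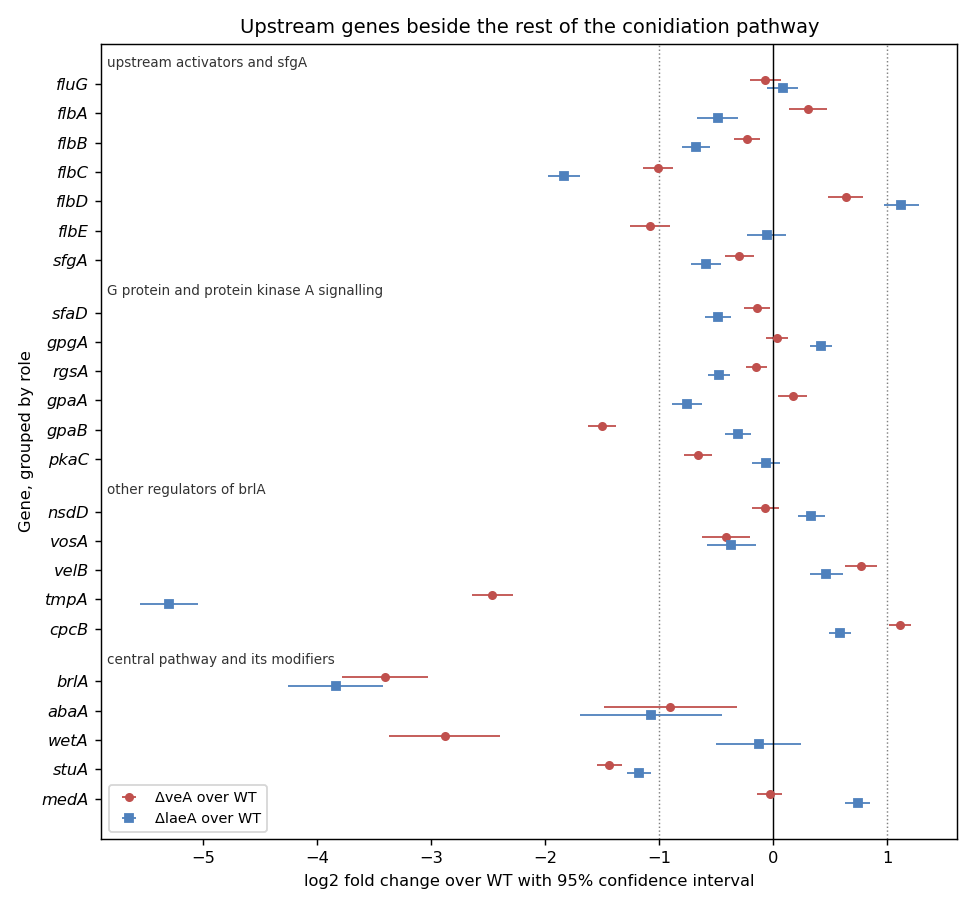
Log2 fold changes over WT with 95% confidence intervals (edgeR, n = 3 libraries per strain) of the 7 upstream genes, of G protein and protein kinase A genes, of other regulators of *brlA* and of the central pathway, for Δ*veA* (circles) and Δ*laeA* (squares). Dotted lines mark 2-fold. *brlA*, at −3.41 and −3.84, lies far to the left of all 7 upstream genes, whose lowest value is −1.83.

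FlbA acts on G protein signaling, and 3 genes of that list were found by symbol. *sfaD* (AN0081) encodes a β subunit, *gpgA* (AN2742) a γ subunit and *rgsA* (AN5755) another regulator of G protein signaling. In Δ*veA*, 2 of the 3 fell and 0 rose, with a median of −0.14, beside 40.0% and 40.1% of all genes. In Δ*laeA*, 2 fell and 1 rose, with a median of −0.48, beside 36.8% and 36.6% of all genes. None of the 3 was a DEG in either mutant. Over all genes, 13.6% were DEGs that rose and 19.9% DEGs that fell in Δ*veA*, and the shares in Δ*laeA* were 9.90% and 14.5%. The fall of *sfaD* in Δ*veA* (−0.14, adjusted p = 0.0168, edgeR) came from libraries that overlapped WT. It was −0.086 without WT replicate 1 (adjusted p = 0.143, edgeR), and it also lost the threshold without Δ*veA* replicate 2 (−0.12) or Δ*veA* replicate 3 (−0.12). *rgsA* and *sfaD* fell by 0.48 each in Δ*laeA*, close to the fall of *flbA* there, and *gpgA* rose by 0.42. The median size of the log2 change over all genes tested in Δ*laeA* was also 0.48. With library totals alone the *gpgA* value in Δ*laeA* was 0.09 (adjusted p = 0.085, edgeR). The α subunit genes *gpaA* (AN0651, planned as *fadA*) and *gpaB* (AN1016, planned as *ganB*) are outside the list. So is the kinase gene *pkaC* (AN6305, planned as *pkaA*). They were left out only because the reference table gives other symbols than those planned. *gpaA* was at 0.17 in Δ*veA* (adjusted p = 0.0122, edgeR), which was −0.09 with library totals alone and 0.076 without Δ*veA* replicate 1 (adjusted p = 0.226, edgeR). It also lost the threshold without WT replicate 3, with DESeq2 and with at least 10 counts in every library. It fell by 0.76 in Δ*laeA*. *gpaB* was a DEG that fell in Δ*veA* (31.5 CPM, against 89.5 CPM in WT) and fell by 0.31 in Δ*laeA*, and *pkaC* fell by 0.66 in Δ*veA*. In Δ*laeA*, *pkaC* was at −0.07 (adjusted p = 0.309, edgeR) with libraries that overlapped WT, and at −0.39 with library totals alone (adjusted p = 4.61e-07, edgeR).

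Of 5 other regulators of *brlA*, 2 rose and 2 fell in Δ*veA*, and 3 rose and 2 fell in Δ*laeA*. These counts lay near the shares of all genes, of which 40.1% rose and 40.0% fell in Δ*veA*, and 36.6% rose and 36.8% fell in Δ*laeA*. *tmpA* (AN0055), which encodes a membrane oxidoreductase that promotes conidiation apart from FluG, had 15.7, 12.9 and 11.8 CPM in Δ*veA* and 1.74, 2.38 and 1.56 CPM in Δ*laeA*, against 73.2, 78.5 and 74.7 CPM in WT. It fell by 2.47 in Δ*veA* (SE 0.088, adjusted p = 1.19e-22, edgeR) and fell by 5.30 in Δ*laeA* (SE 0.12, adjusted p = 1.97e-27, edgeR). Like *flbA*, *flbB*, *flbC* and *sfgA*, it was lower in Δ*laeA* than in Δ*veA*, as were 36.5% of all genes at an adjusted p under 0.05. *cpcB* (AN4163), which encodes a Gβ-like protein, rose by 1.11 in Δ*veA*, under 2-fold with library totals alone (0.85), and by 0.59 in Δ*laeA*. *velB* (AN0363), which encodes a partner of VeA, rose by 0.76 in Δ*veA* and by 0.46 in Δ*laeA*, of which the value in Δ*laeA* was 0.14 with library totals alone (adjusted p = 0.0738, edgeR). *vosA* (AN1959), a repressor of *brlA*, fell by 0.42 in Δ*veA* and fell by 0.37 in Δ*laeA*. *nsdD* (AN3152), also a repressor, was at −0.07 in Δ*veA* (adjusted p = 0.272, edgeR) and rose by 0.33 in Δ*laeA*. Library totals alone gave −0.33 in Δ*veA* (adjusted p = 3.55e-06, edgeR) and 0.01 in Δ*laeA* (adjusted p = 0.896, edgeR). Without Δ*veA* replicate 1, *nsdD* in Δ*veA* was at −0.14 and past the threshold (adjusted p = 0.0232, edgeR).

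Markers of conidiophores and conidia were also examined. Of 8 such markers, *abaA* and *wetA* included, 7 fell in Δ*veA* and 6 in Δ*laeA*, and 0 rose in either. Over all genes, 40.0% fell in Δ*veA* and 36.8% in Δ*laeA*. *rodA* (AN8803), which encodes the hydrophobin of the conidial wall, had the largest fall, with 0.589, 0.353 and 0.308 CPM in Δ*veA* and 0.372, 0.571 and 0.484 CPM in Δ*laeA*, against 11.7, 12.6 and 12.4 CPM in WT. Its log2 fold change was −4.76 in Δ*veA* (SE 0.22, adjusted p = 1.28e-19, edgeR) and −4.65 in Δ*laeA* (SE 0.23, adjusted p = 1.49e-18, edgeR). *yA* (AN6635), which encodes the conidial laccase, did not pass the test, at −0.12 in Δ*veA* (adjusted p = 0.363, edgeR) and −0.07 in Δ*laeA* (adjusted p = 0.648, edgeR). It did with library totals alone, at −0.38 in Δ*veA* (adjusted p = 0.00526, edgeR) and −0.39 in Δ*laeA* (adjusted p = 0.00589, edgeR). The pigment genes *pksP* (AN8209), *ivoA* (AN10576) and *ivoB* (AN0231) fell in both mutants, with log2 fold changes in Δ*veA* of −1.34 for *pksP* and −1.44 for *ivoA* and *ivoB*. In Δ*laeA* they were −0.59 for *pksP*, −1.51 for *ivoA* and −0.50 for *ivoB*. The fall of *pksP* in Δ*laeA* lost the threshold without Δ*laeA* replicate 2 (−0.41, adjusted p = 0.0708, edgeR) and was −0.88 without Δ*laeA* replicate 1. Summed over the 8, Δ*veA* libraries had 23.1 to 24.9 CPM and Δ*laeA* libraries 36.9 to 40.6 CPM, against 63.1 to 65.8 CPM in WT. By means, *ivoB* made the largest part of this sum in each strain, with 9.52 CPM in Δ*veA*, 18.1 in Δ*laeA* and 25.5 in WT. The sum is thus not a level shared by all 8. *dewA* (AN8006), another conidial wall gene, was at 0 counts in Δ*laeA* replicate 1 and in no other library. Its log2 fold changes were −1.41 in Δ*veA* (adjusted p = 0.0237, edgeR) and −1.83 in Δ*laeA* (adjusted p = 0.0122, edgeR). With a library left out, the Δ*veA* value lay between −2.45 (without Δ*veA* replicate 1) and −1.10, and the Δ*laeA* value between −3.60 (without Δ*laeA* replicate 3) and −1.33. The threshold was lost in Δ*veA* without Δ*veA* replicate 2, Δ*veA* replicate 3 or WT replicate 2 and with DESeq2, and in Δ*laeA* without Δ*laeA* replicate 1, Δ*laeA* replicate 2 or WT replicate 2. Fewer differentiated cells and less RNA per cell cannot be told apart in such bulk samples, and the part of these cells in the differences of the 7 genes was not tested.

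Of the 14 genes next to the 7 members, AN11493 (next to *flbA*) and AN11339 (next to *flbC*) had no row in the count table. The 12 others passed the filter on low counts and were read from the same fit. Of these 12, 1 was a DEG that rose and 2 were DEGs that fell in Δ*veA*, and 0 rose and 1 fell as DEGs in Δ*laeA*. Over all genes, 13.6% were DEGs that rose and 19.9% DEGs that fell in Δ*veA*. In Δ*laeA* these shares were 9.90% and 14.5%. AN4820, next to *fluG*, had 32.7, 31.6 and 31.8 CPM in Δ*veA* and 27.0, 32.3 and 29.8 CPM in Δ*laeA*, against 75.5, 72.8 and 80.1 CPM in WT. It fell by 1.25 in Δ*veA* (SE 0.067, adjusted p = 1.13e-17, edgeR) and fell by 1.35 in Δ*laeA* (SE 0.069, adjusted p = 4.52e-18, edgeR), beside a *fluG* that did not pass the test. AN7541, next to *flbB*, had 54.4, 51.1 and 55.3 CPM in Δ*veA* and 0.868, 0.666 and 1.02 CPM in Δ*laeA*, against 1.43, 1.49 and 1.43 CPM in WT. It rose by 5.19 in Δ*veA* (SE 0.12, adjusted p = 3.39e-28, edgeR), where *flbB* fell by 0.23. AN0280, next to *flbD*, had 7.01, 7.17 and 8.48 CPM in Δ*veA* and 28.5, 26.6 and 29.8 CPM in Δ*laeA*, against 18.1, 19.5 and 19.3 CPM in WT. It fell by 1.34 in Δ*veA*, where *flbD* rose, and rose by 0.57 in Δ*laeA*.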

How the data were processed

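Gene expression in Vege was measured by strand-specific, paired-end RNA sequencing. Per the labels and the paper's methods, the authors mapped clean reads with Hisat2 version 2.1 and obtained counts per gene with FeatureCounts version 1.5.0, and they used DESeq2 version 1.6.3 for their own comparisons. The authors deposited raw read counts, not normalized, for single libraries and for all libraries in a table, and the 9 single files equal that table. Gene symbols and the order of neighboring genes were read from a RefSeq table (assembly ASM1142v1). Its assembly differs from the annotation record the paper cites, so no coordinates are given. This table matched 10060 of the 10988 rows and gives a symbol for 6 of the 7 members; for AN8129 the name *sfgA* is the one used in choosing the members. 31 rows repeat an identifier.

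Counts were analyzed with edgeR 4.0.16 in R 4.3.3 (filterByExpr, TMM, robust quasi-likelihood fit, 1 model of 9 libraries with genotype as its term, Benjamini-Hochberg adjustment over 9481 genes). CPM are counts per 1e6 reads of the TMM-scaled library totals. SEs were derived from the F statistic, and the common biological coefficient of variation was 0.052. The procedure was also run on counts simulated from its own fit, with changes planted in part of the genes in Δ*veA* only. That run is no check of the values given here, nor of the scaling where many genes change. Alternatives were DESeq2 1.42.0, RLE factors, library totals alone, no filter on low counts, only the groups compared, a minimum of 10 counts in each library, the replicate number as a block, no fold minimum and each library left out in turn. For profile distances a prior count of 2 was added.

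The members and lists were chosen with earlier results of these data known. The genes named are the 7 members, the pathway list genes and markers whose planned symbol the reference table gives, the deleted genes, the neighbors that were DEGs or overlap a member, and for each member the 2 genes with the nearest profile. Planned genes without the planned symbol did not enter, nor did any marker of sexual structures. *gpaA*, *gpaB* and *pkaC* are given outside this rule. Gene lengths and promoter sequences were not used here, so levels of different genes were not compared and no motif was searched. Plots were drawn with matplotlib 3.10.9.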

Additional observations from a re-analysis of the deposited data

How the results depend on the processing

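Library depth and 3 libraries per strain limit the precision of all values. Counts of DEGs among the upstream genes against WT (2 for Δ*veA*, 2 for Δ*laeA*) and between the mutants (1) were the same with RLE factors, DESeq2, either other filter on low counts, only the groups compared and the replicate block. The replicate numbers did not pair the libraries: correlations of same-numbered libraries ranged from −0.04 to 0.10, and 3 of 9 libraries were nearest to their own number. The replicate block gave 2, 2 and 1 DEGs. With no fold minimum the counts were 6 in Δ*veA* and 5 in Δ*laeA* against WT and 7 between the mutants. With library totals alone the count between the mutants was 0; for Δ*laeA* it stayed at 2, with *flbB* in place of *flbD*. With each library left out in turn, the count was 1 to 2 in Δ*veA* against WT (1 without WT replicate 1, Δ*veA* replicate 2 or Δ*veA* replicate 3) and 0 to 1 between the mutants (0 without Δ*veA* replicate 3 or Δ*laeA* replicate 2).

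Of 147 fold changes of the 7 genes under 7 alternatives with all libraries, 142 kept their direction and their side of the adjusted p threshold, and so did 181 of 189 with a library left out. Reversed values with library totals alone were *fluG* in Δ*laeA* (−0.24), *gpgA* in Δ*veA* (−0.23), *gpaA* in Δ*veA* (−0.093), AN0720 in Δ*laeA* (−0.18) and *vosA* between the mutants (0.016). With at least 10 counts in every library, *gpgA* in Δ*veA* was −0.015. With a library left out, values that crossed 0 ranged from −0.14 to 0.022 for *flbE* in Δ*laeA*, −0.018 to 0.064 for *gpgA* in Δ*veA*, −0.10 to 0.017 for *medA* in Δ*veA*, −0.32 to 0.0063 for *wetA* in Δ*laeA*, −0.13 to 0.018 for *yA* in Δ*laeA* and −0.15 to 0.058 for *vosA* between the mutants. None of the values that crossed 0 with a library left out had passed the test with all libraries. The cause of these shifts was not tested beyond the change of scaling or libraries itself. The order of the 7 genes by level per length and its alternative were not run, since no gene lengths were used here.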
